A study of Mus musculus with 7 samples.

Results

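The AP-1 Fos and Jun family was taken as 8 genes, Fos, Fosb, Fosl1, Fosl2, Jun, Junb, Jund and Atf3. They were chosen by gene symbol, with earlier results of these data known. All 8 were found among the 54838 Ensembl genes of the count table. RNA had been sequenced from 7 mouse cultures, in 3 groups. The first group is 1 library of V6.5, an established embryonic stem cell line (ESC). The second is 3 induced pluripotent stem cell (iPSC) colonies titled GC, grown from germinal center B cells sorted in bulk. The third is 3 iPSC colonies titled M, a letter that the titles do not spell out and that is read here as the Myc-GFP sort, the only other source in the design text. Both colony groups started from splenic B220+ CD38- Fas+ cells of male mice, 9 days after SRBC injection, and for M the cells also carried the signal of an endogenous Myc reporter that marks B cells given T cell help. Both spent 6 days with cytokines on embryonic fibroblasts, 10 days of doxycycline for reprogramming and 4 days without it. Colonies were picked singly, so each is taken here as 1 clone, then moved onto gelatin and pre-plated for 45 min to shed feeder cells. Whether colonies of a group share a founder cell was not tested. ESC and colonies were all kept with serum and LIF, and no strain, doxycycline-driven cassette, donor mouse or batch is given in the labels, nor whether ESC was pre-plated. Each p below therefore measures spread between these colonies only.

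AP-1 is a set of transcription factors that bind DNA as pairs joined through a leucine zipper. Fos proteins cannot pair with themselves and bind DNA mainly with a Jun partner, whereas Jun proteins can also form Jun-Jun pairs. Fos, Fosb, Jun, Junb and Atf3 are classic early response genes, transcribed within minutes of serum, growth factors or stress, and their RNA is short-lived. In reprogramming, Jun is known as a barrier that holds cells in their somatic state. Handling and dissociation of cells are known to switch early response genes on.

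The libraries held between 31139508 and 35728921 counts, and the members between 114 counts (Fosl1 in ESC) and 32298 counts (Fos in ESC). All 12 pluripotency markers had counts in all 7 libraries, and their summed level was 8829 CPM (read counts, scaled to library size by TMM over the 7 libraries) in ESC and 6455 to 7008 CPM in the 6 colonies. Of 14 B cell markers, 5 were at 0 in at least 1 library, with a sum of 40.1 CPM in ESC, 36.7 to 37.6 CPM in GC and 25.7 to 29.1 CPM in M colonies. The 22 fibroblast markers, listed because the colonies grew on feeder fibroblasts, summed to 815 CPM in ESC, 1408 to 1559 CPM in GC and 1407 to 1833 CPM in M colonies. Of 4 Y-linked genes, M colonies 2 and 3 had 0 counts, against 740 in ESC and 3732 to 4699 in the other 4 colonies.

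Fos, the founding member, was the most abundant of the 8, and the colonies had less of it than ESC. The promoters of Fos and of 3 other members, Fosb, Jun and Atf3, are shown so that their starts can be compared. They are the 250 bases before the RefSeq start (GRCm38.p6), 5′ to 3′ on the gene's strand, with capitals for the letters TGACG (the core of the cAMP response element, CRE) and TNACNTCA (the CRE and close variants) on either strand.
Fos: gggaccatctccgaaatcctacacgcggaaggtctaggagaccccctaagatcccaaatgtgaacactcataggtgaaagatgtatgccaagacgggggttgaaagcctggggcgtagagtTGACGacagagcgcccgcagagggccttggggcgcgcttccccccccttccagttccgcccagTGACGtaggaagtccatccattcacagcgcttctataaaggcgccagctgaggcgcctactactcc
Fosb: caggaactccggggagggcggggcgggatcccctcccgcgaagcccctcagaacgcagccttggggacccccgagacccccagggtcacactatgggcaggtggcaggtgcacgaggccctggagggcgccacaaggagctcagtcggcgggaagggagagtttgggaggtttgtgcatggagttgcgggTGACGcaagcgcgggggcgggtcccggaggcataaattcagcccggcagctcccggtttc
Jun: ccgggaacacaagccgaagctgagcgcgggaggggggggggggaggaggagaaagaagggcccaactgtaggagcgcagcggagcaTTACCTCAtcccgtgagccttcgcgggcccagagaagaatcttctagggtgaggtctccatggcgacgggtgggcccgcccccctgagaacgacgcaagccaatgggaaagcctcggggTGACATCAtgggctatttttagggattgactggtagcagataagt
Atf3: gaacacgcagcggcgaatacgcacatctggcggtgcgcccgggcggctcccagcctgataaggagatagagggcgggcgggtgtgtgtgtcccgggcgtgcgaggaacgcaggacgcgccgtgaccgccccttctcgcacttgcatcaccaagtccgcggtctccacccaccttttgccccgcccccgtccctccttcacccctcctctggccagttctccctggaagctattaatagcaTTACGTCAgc
These windows are chr12:85473640-85473889 (plus strand), chr7:19310046-19310295 (minus), chr4:95052223-95052472 (minus) and chr1:191183334-191183583 (minus). TNACNTCA was chosen after the sequences had been read.

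In Fos, TGACG stood at -129 to -125 and at -66 to -62 from the start, with a TATAAA box at -33 to -28. In Fosb, TGACG stood at -60 to -56. Jun held TNACNTCA as TTACCTCA at -164 to -157 and as TGACATCA at -45 to -38. Atf3 held it as TTACGTCA at -10 to -3, where it overlaps a TGACG on the other strand. The RefSeq start used for Atf3 lies 34706 bases from its GENCODE gene start, so it is an inner start; those of Jund and Fosl2 lie 1210 and 671 bases from theirs. Of the 7 members with a promoter in the RefSeq table (all but Fosl1), 4 held TGACG, against 17.8% of 32851 same-length promoter windows. TNACNTCA was held by 3 (Jun, Jund and Atf3), against 14.0%. As TNACNTCA was chosen after these sequences had been read, its count beside that share is not a test. The full CRE TGACGTCA (1.55% of windows) and the AP-1 site in the form TGANTCA (6.75%) were absent from these 7 windows. So was the CArG box bound by SRF (1.47%). Bases outside the windows were not searched, so no member, Fos included, is read as lacking these sites. TGANTCA cannot match forms with a longer gap between TGA and TCA, such as the TGACATCA of Jun. Whether AP-1 binds that site was not tested. The matches given here describe the letters only.

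Fos was 1082 CPM in ESC, 536, 506 and 537 CPM in GC colonies 1 to 3, and 551, 646 and 666 CPM in M colonies 1 to 3. All 6 colonies lay below ESC, and the M values lay above the GC values, M colony 1 only narrowly. Fos (ENSMUSG00000021250, chromosome 12 from 85473890 to 85477273, GRCm38) fell in GC colonies by 1.04 ± 0.09 (SE) on the log2 scale against ESC (edgeR adjusted p = 1.5e-05). In M colonies it fell by 0.80 ± 0.09 (SE) against ESC (edgeR adjusted p = 7.2e-05). Between the colony groups the difference was 0.24 ± 0.07 (SE), M minus GC, which did not pass (edgeR adjusted p = 0.0888; DESeq2 adjusted p = 0.0352).

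Fosb, a Fos relative with a strong activation domain, was 536 CPM in ESC, 399.7, 378 and 433 CPM in GC colonies, and 526, 492 and 557 CPM in M colonies. GC colonies were the low group, and ESC stood inside the range of M colonies. Fosb (ENSMUSG00000003545, chromosome 7 from 19302696 to 19310051) rose in M against GC colonies by 0.38 ± 0.07 (SE) on the log2 scale (edgeR adjusted p = 0.00671), which did not pass on leaving out GC colony 2 (edgeR adjusted p = 0.0661) or M colony 3 (0.0539). It fell in GC colonies against ESC by 0.41 ± 0.09 (SE; edgeR adjusted p = 0.00858). M colonies and ESC differed by -0.03 ± 0.09 (SE), which did not pass (edgeR adjusted p = 0.878), and the sign turned without M colony 2 (0.0160).

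Fosl1 and Fosl2 code for FRA-1 and FRA-2, Fos relatives without the activation domain of Fos. Fosl2 was 12.3 CPM in ESC, 26.2, 23.7 and 27.0 CPM in GC colonies, and 36.4, 32.9 and 40.5 CPM in M colonies. The 3 groups did not overlap, with ESC lowest and M highest. Fosl2 (ENSMUSG00000029135, chromosome 5 from 32135801 to 32157842) rose 2.09-fold in GC and 2.98-fold in M colonies against ESC, by 1.06 ± 0.16 and 1.58 ± 0.16 (SE) on the log2 scale (edgeR adjusted p = 6.2e-04 and 3.0e-05). Against GC colonies it rose in M by 0.51 ± 0.10 (SE; edgeR adjusted p = 0.0120), which did not pass on leaving out GC colony 2 (edgeR adjusted p = 0.0899) or M colony 3 (0.0812). Fosl1 was the scarcest member, at 3.82 CPM in ESC, 4.38, 4.51 and 4.27 CPM in GC and 6.54, 5.57 and 5.07 CPM in M colonies. Its groups also stood in the order ESC, GC, M without overlap, but none of the 3 differences of Fosl1 passed (edgeR adjusted p = 0.676 for GC minus ESC, 0.148 for M minus ESC and 0.284 for M minus GC). Fosl1 overlaps Ccdc85b on the opposite strand.

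Jun, a partner through which Fos proteins bind DNA, was 171 CPM in ESC. It was 234, 216 and 226 CPM in GC colonies, and 307, 279 and 320.4 CPM in M colonies. As with Fosl2, the groups did not overlap and stood in the order ESC, GC, M. Jun (ENSMUSG00000052684, chromosome 4 from 95049034 to 95052222) rose 1.32-fold in GC and 1.77-fold in M colonies against ESC, by 0.40 ± 0.10 and 0.82 ± 0.10 (SE) on the log2 scale (edgeR adjusted p = 0.0142 and 8.7e-05). Against GC colonies it rose in M by 0.42 ± 0.07 (SE; edgeR adjusted p = 0.00314). Jun kept its call in 6 of 6 fits that left out 1 colony (edgeR adjusted p from 0.00204 to 0.0341).

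Junb, a Jun relative that can restrain Jun, was 92.9 CPM in ESC, 90.1, 88.4 and 88.5 CPM in GC colonies, and 113, 102 and 115 CPM in M colonies. GC colonies sat just below ESC and M colonies above both. Junb (ENSMUSG00000052837, chromosome 8 from 84974484 to 84978718) rose in M against GC colonies by 0.30 ± 0.07 (SE) on the log2 scale (edgeR adjusted p = 0.0250). That call held in 2 of 6 fits that left out 1 colony, without GC colony 3 and without M colony 2, and was lost in the other 4 (edgeR adjusted p from 0.0594 to 0.144). Junb did not pass against ESC in either group (edgeR adjusted p = 0.747 for GC and 0.116 for M). Prdx2 overlaps Junb on the opposite strand and could share reads with it; the GC colonies had 197 ± 15.4 CPM of Prdx2 and the M colonies 203 ± 11.6 CPM (SD, n = 3 each).

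Jund, the Jun protein of resting cells, was 146 CPM in ESC, 86.7, 84.5 and 66.5 CPM in GC colonies, and 90.1, 91.5 and 90.8 CPM in M colonies. Like Fos, it was highest in ESC, and GC colony 3 stood below the other 5 colonies. Jund (ENSMUSG00000071076, chromosome 8 from 70698949 to 70700616) fell against ESC by 0.88 ± 0.12 in GC and 0.68 ± 0.12 (SE) in M colonies on the log2 scale (edgeR adjusted p = 3.6e-04 and 0.00183). M and GC colonies differed by 0.19 ± 0.09 (SE), which did not pass (edgeR adjusted p = 0.313).

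Atf3, a stress-induced factor of the ATF family that pairs with Jun proteins and often represses, was 39.1 CPM in ESC, 67.6, 55.6 and 65.4 CPM in GC colonies, and 126, 73.4 and 109 CPM in M colonies. Its mean in M colonies was 103 ± 26.9 CPM (SD, n = 3), the widest spread of the 8 relative to the mean, and M colony 2 stood close to GC colony 1. Atf3 (ENSMUSG00000026628, chromosome 1 from 191170296 to 191218039) rose in M colonies 1.63-fold against GC (0.71 ± 0.15, SE, on the log2 scale; edgeR adjusted p = 0.0206). That call held in 3 of 6 fits that left out 1 colony, and was lost on leaving out GC colony 2 (edgeR adjusted p = 0.119), M colony 1 (0.0632) or M colony 3 (0.114). Against ESC, Atf3 rose 2.62-fold in M colonies (edgeR adjusted p = 0.00104). The GC minus ESC difference of Atf3, 0.68 ± 0.22 (SE) on the log2 scale, did not pass (edgeR adjusted p = 0.0614).

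**Figure D1:**
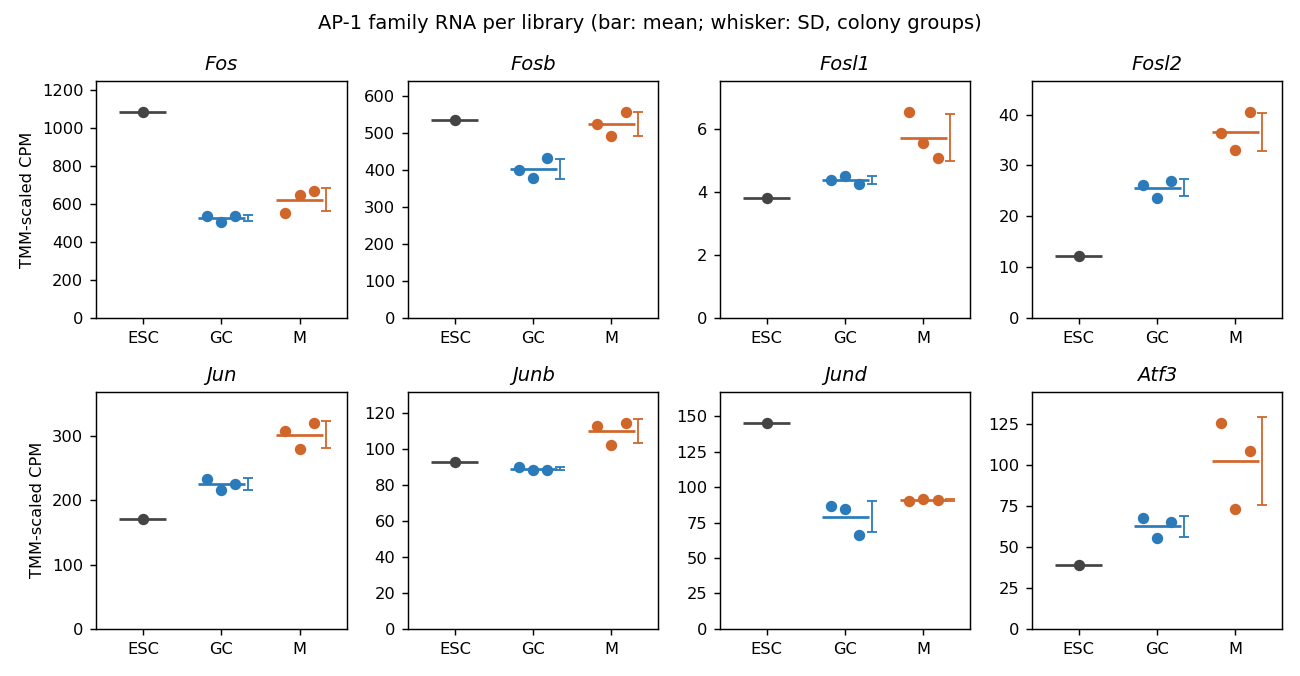
TMM-scaled CPM (vertical axes, from 0) of the 8 genes in 1 ESC library, 3 GC and 3 M colonies; points are libraries, bars group means and whiskers the SD of the colony groups. M points lie above GC points in all 8 panels, while ESC is highest for Fos and Jund and lowest for Jun, Fosl1, Fosl2 and Atf3.

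The comparison of the 2 colony groups asks how iPSCs differ by the B cells they came from. Of the 8 members, 5 rose in M colonies (Fosb, Fosl2, Jun, Junb and Atf3), against 1.7% of the 18166 genes tested, and 0 fell, against 2.27% (3.97% passed in either direction). DESeq2 called 6 up and 0 down, limma-voom 5 and 0, and at an unadjusted p under 0.05 edgeR had 7 up and 0 down. In all 8, each M value lay above each GC value, against 10.1% of genes tested. The median difference of the 8 was 0.38 on the log2 scale, beside 0.003 over all genes tested. The 8 were chosen with earlier results of these data known, so the shares over all genes only give scale. The number risen was 1, Jun, without GC colony 2 or without M colony 3. Without M colonies 2 and 3, the pair at 0 for Y-linked genes, it was 2, Jun and Atf3, with a spread taken from GC colonies alone.

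In the colonies against the ESC library, family members went in opposite directions. GC colonies had 2 members risen (Fosl2 and Jun) and 3 fallen (Fos, Fosb and Jund), where 7.53% of 20502 genes tested rose and 5.51% fell. M colonies had 3 risen (Fosl2, Jun and Atf3) and 2 fallen (Fos and Jund), where 8.84% rose and 7.37% fell. In either direction 13% of genes passed for GC and 16.2% for M colonies. All 3 GC values lay above ESC in 4 members and below it in 4, against 34.7% and 33.5% of genes tested. All 3 M values lay above ESC in 5 members and below it in 2, against 34.7% and 35%, and with 1 ESC library nothing is read from these counts. Both comparisons share the 1 ESC library, whose own spread is unknown and was taken to equal that of the colonies. The summed fibroblast markers were higher in the colonies as well, and 12 of 21 tested rose in each comparison, 0 fell; DESeq2 had 12 and 13 risen, limma-voom 9 and 11, and none had any fallen, with 12 and 16 higher and 0 lower at an unadjusted p under 0.05. Of 12 pluripotency markers, 1 rose and 8 fell in GC and 1 rose and 9 fell in M colonies. In each group DESeq2 had 1 risen and 8 fallen and limma-voom 1 and 9, with 1 higher and 9 lower at an unadjusted p under 0.05. Of 10 B cell markers, 0 rose and 0 fell in GC colonies, and 2 fell in M colonies (Cd37 and Cd79b). For GC colonies DESeq2 and limma-voom had 0, with 2 higher and 2 lower at an unadjusted p under 0.05. For M colonies DESeq2 had 1 fallen and limma-voom 2, with 0 higher and 3 lower at an unadjusted p under 0.05. Fibroblasts express AP-1 genes, fewer cells of a type and less RNA per cell cannot be told apart in bulk RNA, and the part of feeders in the ESC comparisons was not tested.

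Between the colony groups, the fibroblast list had 0 of 21 genes risen and 0 fallen by edgeR and by limma-voom, 1 risen by DESeq2, and 3 higher and 0 lower at an unadjusted p under 0.05. Of all genes tested by edgeR, 1.7% rose and 2.27% fell in M against GC colonies. The median difference of the fibroblast list was 0.14 on the log2 scale, beside 0.003 over all genes tested. The fibroblast sum was 1408, 1520 and 1559 CPM in GC colonies 1 to 3. In M colonies 1 to 3 the sum was 1833, 1579 and 1407 CPM. M colony 1, with the highest sum, had the highest Atf3 and Fosl1 of the 6 colonies. M colony 3, with the lowest sum and GC colony 1 next to it, had the highest Fos, Fosb, Fosl2, Jun and Junb. Of the defining fibroblast genes, Lum was at 0 in 3 libraries and had at most 4 counts, and Dcn at most 48, while Col1a1 reached 13353 counts and Pdgfra 1276. Of 9 tested B cell markers 0 rose and 1 fell (Cd37) by edgeR, DESeq2 and limma-voom alike, with 0 higher and 1 lower at an unadjusted p under 0.05. Of 12 pluripotency markers 2 rose (Pou5f1 and Klf4) and 0 fell by edgeR, while DESeq2 and limma-voom each had 2 risen and 1 fallen, and 2 were higher and 4 lower at an unadjusted p under 0.05. The part of these cell types in the colony difference was not tested.

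**Figure D2:**
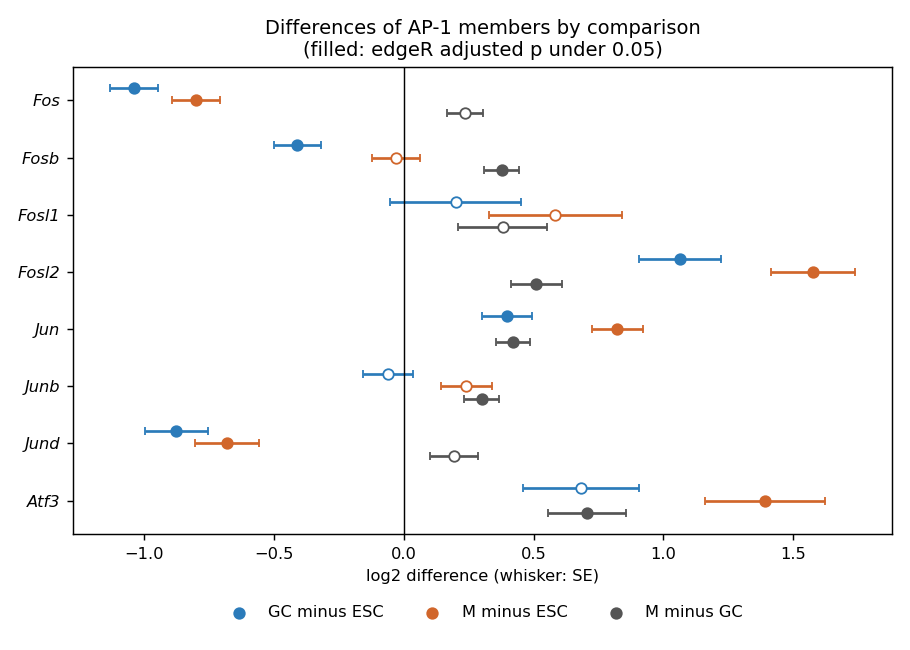
Log2 differences (horizontal axis) of the 8 genes in 3 comparisons, with whiskers for the SE and filled points for an edgeR adjusted p under 0.05. The M minus GC points all lie right of 0, from 0.19 (Jund) to 0.71 (Atf3), while the 2 ESC comparisons run from -1.04 (Fos, GC) to 1.58 (Fosl2, M).

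Levels of different genes were compared as CPM per kb of merged exon length. This length takes in every annotated exon, 6.24 kb for Fosb and 3.19 kb for Jun, and the order depends on it. Before division by length Fosb stood above Jun, with means of 403 and 225 CPM in GC and 525 and 302 CPM in M colonies. Fos led in all 7 libraries, at 460 CPM per kb in ESC, 224 ± 7.4 in GC and 264 ± 26.1 in M colonies (SD, n = 3 each). In ESC the next were Jund (87.3 CPM per kb), Fosb (85.9), Jun (53.6), Junb (40.4) and Atf3 (18.2), with Fosl1 (1.88) and Fosl2 (1.27) far below. In each of the 6 colonies Jun took the second place and Fosb the third, and Fosl2 stood above Fosl1. Jun and Fosb were nonetheless neighbours whose ranges overlapped, at 70.6 ± 2.8 and 64.6 ± 4.4 CPM per kb in GC and 94.7 ± 6.7 and 84.1 ± 5.2 CPM per kb in M colonies. In M colonies Jund (54.4 ± 0.4 CPM per kb) stood above Junb (47.7 ± 2.9 CPM per kb) without overlap, while Atf3 (47.7 ± 12.5 CPM per kb) spanned both and could not be placed.

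The make-up of the family differed between ESC and colonies. Of the summed Fos family level per kb, Fos made up 83.8% in ESC, 76.3% ± 0.7 in GC and 74.4% ± 2.2 in M colonies (SD, n = 3 each), and Fosb 15.6%, 22.02% ± 0.75 and 23.8% ± 2.0. Of the Jun family level, Jund made up 48.2% in ESC, 30.2% ± 3.0 in GC and 27.7% ± 1.5 in M colonies. Jun made up 29.6%, 45.1% ± 2.2 and 48.1% ± 1.1 in the same order, and Junb 22.3%, 24.7% ± 1.0 and 24.2% ± 0.4. So per kb Jund was the leading Jun gene in ESC and Jun in all 6 colonies. Before division by length Jun stood above Jund in ESC too, at 171 and 146 CPM, so the change of leader depends on the exon lengths. Summed Fos family RNA per kb was 3.03 times the summed Jun family RNA in ESC, 1.79 to 2.03 times in GC and 1.63 to 1.93 times in M colonies, so the colony groups overlapped and ESC stood above both. These shares are descriptions, with 1 ESC library and no test, and they rest on the same merged exon lengths.

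**Figure D3:**
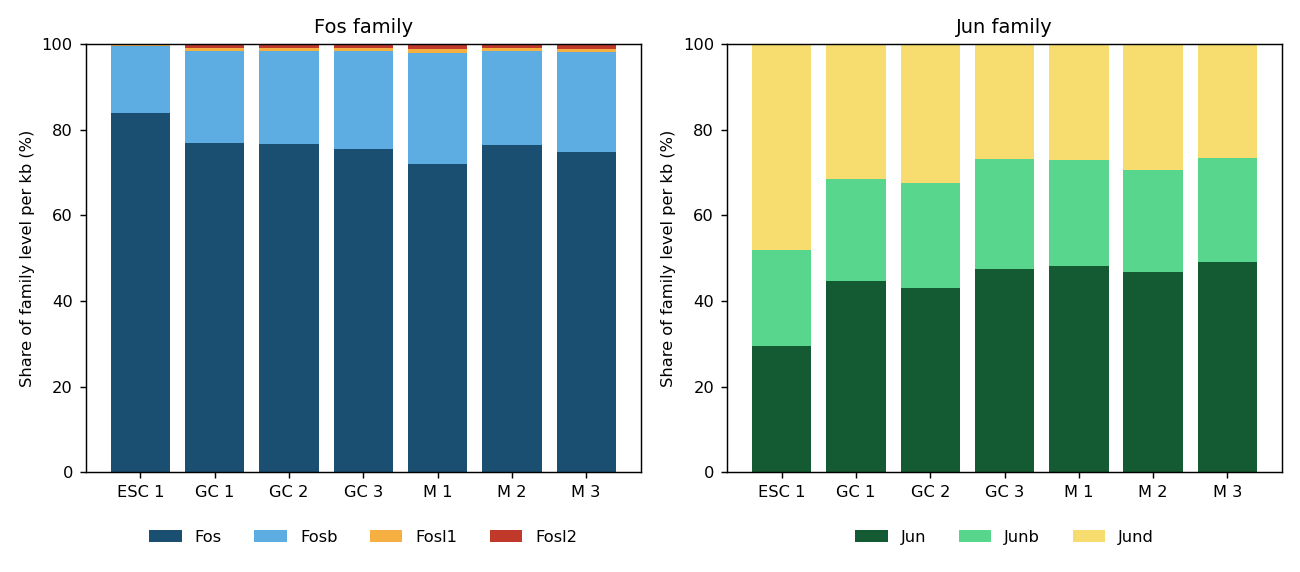
Share of each gene (vertical axis, percent) in the summed CPM per kb of the Fos family (left) and Jun family (right) in the 7 libraries, drawn as stacked bars. Fos takes 83.8% of its family in ESC, and Jund takes 48.2% of the Jun family there, more than in any of the 6 colonies.

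The proteins that pair with or act on AP-1 were read from lists. For scale, edgeR called 1.7% of all genes tested up and 2.27% down in M against GC colonies. Against ESC it called 7.53% up and 5.51% down in GC colonies, and 8.84% and 7.37% in M colonies. These shares stand beside the counts of each list below. Of 14 tested dimer partners (ATF, BATF, MAF and related factors), 1 rose in M against GC colonies and 0 fell, beside 2 and 0 by DESeq2, 1 and 0 by limma-voom, and 4 higher and 1 lower at an unadjusted p under 0.05. The riser was Maff, a small MAF protein, from 42.1 ± 1.8 to 53.6 ± 5.3 CPM (SD, n = 3 each; edgeR adjusted p = 0.0413). Atf4, the most abundant partner and a factor of the amino acid response, was 328 ± 17.4 and 354 ± 14.7 CPM and did not pass. Against ESC, 1 of 15 rose in GC colonies (Mafk, from 20.3 to 31.9 ± 2.1 CPM; edgeR adjusted p = 0.00993). In M colonies 1 rose (Mafk, to 39.4 ± 4.2 CPM; edgeR adjusted p = 7.0e-04) and 1 fell (Jdp2, a repressor of AP-1 sites; edgeR adjusted p = 0.0399).

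The MAP kinases, SRF, its TCF partners and related activators, which relay growth factor and stress signals to AP-1 genes, numbered 32. Of these, 0 rose and 0 fell in M against GC colonies with any of the 3 tools, and 4 had higher and 0 lower values at an unadjusted p under 0.05. Against ESC, 2 fell in GC colonies (Mapk7 and Map2k1). In M colonies 1 rose (Braf) and 2 fell (Mapk7 and Map2k3). RNA levels of kinases do not report their activity.

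The 21 negative regulators include MAP kinase phosphatases and factors that destroy AP-1 RNA or degrade Jun. Of the 21, 3 rose in M against GC colonies (Zfp36, Dusp1 and Dusp5) and 1 fell (Sik1). DESeq2 had 6 risen and 1 fallen, limma-voom 3 and 1, and at an unadjusted p under 0.05 there were 10 higher and 2 lower. Zfp36 codes for tristetraprolin, which binds and destabilises short-lived RNAs such as that of Fos, and went from 63.0 ± 3.6 to 79.7 ± 2.0 CPM (SD, n = 3 each; edgeR adjusted p = 0.0174). Dusp1, a MAP kinase phosphatase that is itself an early response gene and was the most abundant of the list, went from 231 ± 9.2 to 276 ± 13.3 CPM (edgeR adjusted p = 0.0367), beside 299.7 CPM in ESC. Dusp5, a nuclear MAP kinase phosphatase, went from 34.95 ± 2.2 to 43.9 ± 0.8 CPM (edgeR adjusted p = 0.0406), and Sik1, a kinase of the cAMP response, from 117 ± 1.9 to 94.5 ± 4.8 CPM (edgeR adjusted p = 0.0180). Against ESC, 3 rose and 5 fell in GC colonies, led by a rise of Spry2 and a fall of Dusp16, and 7 rose and 3 fell in M colonies, led by a fall of Sik1 and a rise of Dusp4.

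Of 21 other early response genes, 3 rose in M against GC colonies and 0 fell, with 4 and 0 by DESeq2, 2 and 0 by limma-voom, and 10 higher and 1 lower at an unadjusted p under 0.05. Their median difference was 0.21 on the log2 scale, against 0.38 for the AP-1 members. Klf6 rose from 171 ± 18.5 to 222 ± 17.5 CPM, Egr2 from 8.97 ± 1.25 to 13.5 ± 0.7 CPM and Nr4a1 from 64.3 ± 2.6 to 77.5 ± 3.2 CPM (SD, n = 3 each; edgeR adjusted p = 0.0234, 0.0285 and 0.0480). Egr1, the most abundant of them and a zinc finger factor driven by SRF, was 601 CPM in ESC, 346 ± 32.9 CPM in the GC group and 402 ± 8.8 CPM in the M group. Like Fos, Egr1 fell against ESC in both groups and did not pass between them. Against ESC, 6 rose and 7 fell in GC colonies and 8 rose and 5 fell in M colonies, so this list was also split. By adjusted p, Ccn2 and Myc led the risers in each, and Myc was 7.14 CPM in ESC, 25.8 ± 3.2 CPM in the GC group and 33.5 ± 1.7 CPM in the M group.

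Of 27 tested genes known as AP-1 targets in other cells, 3 rose in M against GC colonies and 0 fell, with 4 and 0 by DESeq2, 3 and 0 by limma-voom, and 7 higher and 0 lower at an unadjusted p under 0.05. Krt18, a keratin of simple epithelia, went from 157 ± 11.5 to 264 ± 35.2 CPM (SD, n = 3 each; edgeR adjusted p = 5.5e-04), beside 23.7 CPM in ESC. Plaur, the urokinase receptor, went from 36.7 ± 4.1 to 49.2 ± 5.0 CPM (edgeR adjusted p = 0.0366), and Mmp14, a membrane-bound matrix protease, from 53.5 ± 3.6 to 66.1 ± 1.8 CPM (edgeR adjusted p = 0.0371). The median of the list was 0.04 on the log2 scale. Against ESC, 11 of 31 rose and 2 fell in GC colonies, where 7.53% of all genes tested rose and 5.51% fell. In M colonies 15 rose and 1 fell, where 8.84% of all genes tested rose and 7.37% fell. Krt18 and Plaur were among the leading risers in both groups. Several genes of the list, among them Vim, Cd44 and Fn1, are abundant in fibroblasts. Fibroblast markers were higher in the colonies too, and the part of feeders in the target results was not tested. Fn1, the most abundant target, was 1664 CPM in ESC, 1641 ± 223 CPM in the GC group and 1645 ± 108 CPM in the M group.

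Heat shock chaperones, a sign of protein damage that can accompany an early response, had 1 of 12 risen and 0 fallen in M against GC colonies (1 and 0 by DESeq2 and by limma-voom; 2 higher and 0 lower at an unadjusted p under 0.05). The riser was Hspa5, the chaperone BiP of the endoplasmic reticulum, from 668 ± 32.5 to 792 ± 51.5 CPM (SD, n = 3 each; edgeR adjusted p = 0.0479). Hsp90ab1, the most abundant, was 6513 ± 259 and 6430.1 ± 155.9 CPM.

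**Figure D4:**
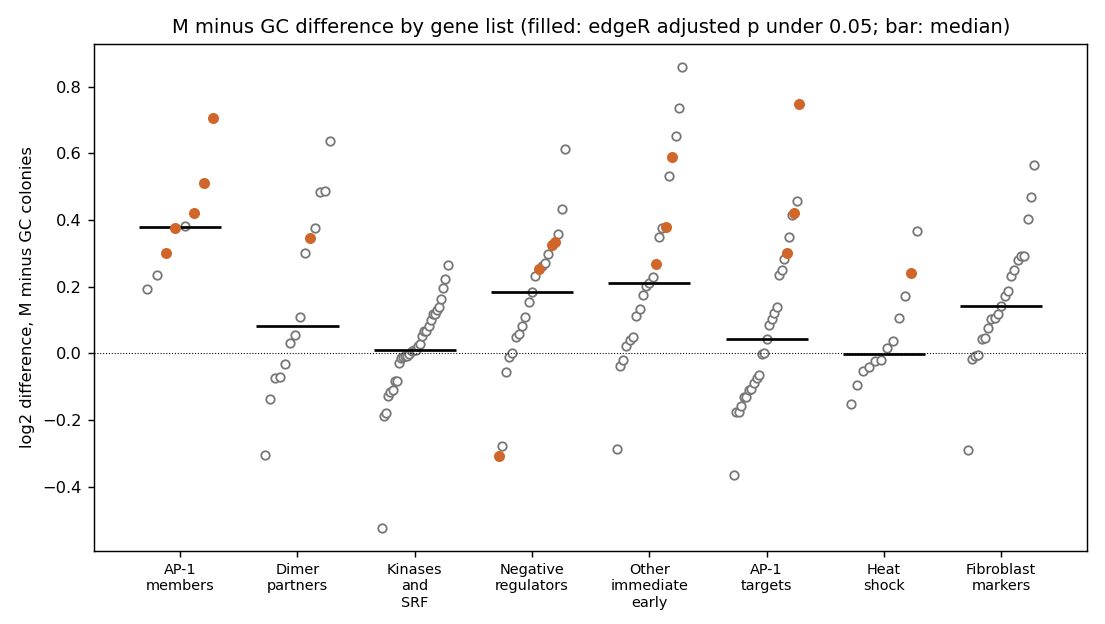
Log2 difference, M minus GC colonies (vertical axis), of each tested gene in 8 lists, with filled points for an edgeR adjusted p under 0.05 and a bar at the list's median. The median is 0.38 for AP-1 members, 0.21 for other early response genes and 0.18 for negative regulators. It is 0.14 for fibroblast markers and 0.01 for kinases and SRF.

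Genes whose levels went most like Fos or Jun over the 7 libraries were sought among 9726 other genes of at least 10 CPM on average, by the root mean square difference of centred log2 CPM. Nearest to Fos were Camk2n1 (0.07), Ggt1 (0.08), Slc27a1 (0.08), Coq10a (0.09) and Lix1l (0.09), against a median of 0.35 over all genes compared. Nearest to Jun were Pmm2 (0.06), Lrig3 (0.07), Capn2 (0.07), Trib1 (0.07) and Lrp8 (0.07), against a median of 0.33. Within the family, Jund was the member nearest to Fos (0.16, rank 87) and Junb the member nearest to Jun (0.19, rank 567), while Fos and Jun lay 0.55 apart. The libraries share depth and culture, and these distances are descriptions of 7 libraries.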

How the data were processed

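The authors deposited 1 table of raw counts, with an Ensembl gene in each row, for all 7 libraries. Tools named in the submitters' processing notes are STAR 2.7.10a and featureCounts 2.0.6, and the build is mm10 (GRCm38); strand and pair settings are not given in the sources used here. Per the labels, the design text names non-stranded poly-A libraries and the sample protocol a directional kit, so overlapping genes may share reads. Counts of 1 to 49 were even in 68.5% to 72.2% of cases, against 49.5% to 50.9% at 1000 or more, and the cause was not tested. Colonies of 1 group differed beyond sampling noise (chi-square per gene 6.04 to 22.3).

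Genes were named by GENCODE M21 (54809 of 54838 matched; 190 of 190 list genes). After filterByExpr, counts were TMM-scaled and tested by edgeR 4.0.16 (quasi-likelihood, two-sided), adjusted by Benjamini-Hochberg over all genes tested at a threshold of 0.05. M and GC colonies were fitted alone (6 libraries), and ESC comparisons on all 7. SE is the log2 difference over the square root of F. The script was tested on simulated data. Alternatives were DESeq2 1.42.0, limma-voom (limma 3.58.1), RLE scaling, no filter, left-out colonies, a block on colony number, and M against GC colonies in a fit of all 7 libraries. Members and lists were chosen with earlier results of these data known. Named genes were all 8 members, in other lists at most 4 passing genes by adjusted p plus the most abundant, and the 5 nearest patterns of Fos and of Jun. Of the genes this rule picks, 2 are not reported here. Other genes, named where a count is small or as background, were chosen after their values were seen. Promoter sequences are from RefSeq on GRCm38.p6.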

Additional observations from a re-analysis of the deposited data

How the results depend on the processing

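Over the alternatives to each comparison, 87 of 104 single-gene results of M against GC colonies kept their direction and side of the threshold, 14 were no longer called and 3 became called (Fos by DESeq2, without the filter and without M colony 1). The number of members risen was 5, and ran from 1 to 5 when 1 colony was left out, with 1 without GC colony 2 and 1 without M colony 3; Junb alone was also lost without GC colony 1 (edgeR adjusted p = 0.0657), and Junb and Atf3 without M colony 1 (edgeR adjusted p = 0.0594 and 0.0632). It was 2 without both M colonies lacking Y-linked counts, and in that setting Jun and Atf3 were called. No member reversed in this comparison. Against ESC, 84 of 88 results of GC colonies and 87 of 88 of M colonies were the same. Atf3 became called in GC colonies with no filter and on leaving out M colony 1, M colony 2 or the pair. Fosb in M against ESC, -0.03 on the log2 scale, ran from -0.0742 to 0.0160 when 1 colony was left out, and was 0.0160 without M colony 2 (edgeR adjusted p = 0.942). Over all genes, 721 passed in M against GC colonies, 1318 without a filter, and 412, 244, 270 and 373 on leaving out GC colony 1, GC colony 2, M colony 3 and both M colonies. Colony numbers do not pair the samples by the labels. Same-numbered colonies deviated together with correlations of 0.105, 0.0915 and 0.140 across genes, each colony correlating best with its own number. With the replicate block, 5 members rose and 963 genes passed. A count of 0 allows 3 counts, or 0.0840 to 0.0963 CPM by library, for counting error only; the scarcest member, Fosl1, had 114 to 214 counts.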
